A study of Mus musculus with 8 samples.

Results

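Glutamate is the transmitter of photoreceptors, bipolar cells and ganglion cells, the chain of neurons that carries the visual signal through the retina. Vesicular glutamate transporters (VGLUTs, encoded by SLC17 family genes) load the transmitter into synaptic vesicles with the driving force of a proton pump. Excitatory amino acid transporters (EAATs, encoded by SLC1 family genes) sit in the plasma membrane, take glutamate back up together with sodium, and so end the signal. The mRNAs of 6 such genes were followed in the adult mouse retina: Slc17a7 (VGLUT1), Slc17a6 (VGLUT2), Slc17a8 (VGLUT3), Slc1a2 (EAAT2, also GLT1), Slc1a1 (EAAT3) and Slc1a7 (EAAT5). They were taken by gene name from the 18058 genes of the deposited table, and all 6 passed the filter on low values that left 17636 genes to test. Slc17a8 was chosen by its values in this contrast, that is its lower level in the quadruple KO in these same libraries, so its difference between genotypes is described here without a test.

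The samples were retinae of adult wildtype (WT) mice of the inbred strain 129S2/SvPasCrl and of adult quadruple knockout (KO) mice, with 4 libraries of total RNA for each genotype, named A to D. The series description counts 4 mice per genotype, retinae were pooled before RNA was extracted, and which retinae went into a pool is not given in the sources used here. The quadruple KO mice descend from crosses of single mutant lines and carry KO constructs for the extracellular matrix genes Bcan (brevican), Ncan (neurocan), Tnc (tenascin-C) and Tnr (tenascin-R) in every cell, not in a chosen cell type. Adult mice of both sexes were used in the study, and the sex and litter behind each library are not given in the sources used here. The values are normalized counts, that is estimated read counts per gene divided by normalization factors, and their sum per library was 36.6 M to 42.2 M in WT and 36.1 M to 37.2 M in the quadruple KO.

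The labels were checked first. Of the targeted genes, Ncan had 688 ± 94.0 normalized counts in WT compared with 0.39 ± 0.45 in the quadruple KO, Bcan 258 ± 54.7 and 15.0 ± 4.79, and Tnr 5856 ± 340 and 2509 ± 95.1. Tnc had 1265 ± 330 and 1175 ± 104, and a gene-level count does not show whether a transcript carries the mutation. The tissue label was matched by its defining transcript Sag (the arrestin of rod photoreceptors), with a mean of 180841 normalized counts in WT, against 208980 in the quadruple KO. The libraries WT B and WT C stood apart from the other 6. The 13 mRNAs encoded by the mitochondrial genome took 0.402% and 0.341% of their normalized counts, compared with 1.28% to 1.64% in the others, and RNA of the signal recognition particle took 19.3% and 14.8%, compared with 6.82% to 8.69%. Their part in the results below was not tested, and each transporter and each list of genes is therefore also given without WT B and WT C. WT A and WT D also differed from each other. Of the retinal pigment epithelium markers, Rgr, Lrat and Ttr were highest in WT D, with 2610, 494 and 3008 normalized counts. WT A had 731, 119 and 1092, while Best1 was highest in KO B. The lens marker Cryaa also varied in both genotypes, with 33.5, 1154, 297 and 129 normalized counts in WT A to D. In KO A to D it had 162, 11.7, 865 and 77.3. The part of these differences was not tested either. Errors are SDs over the 4 libraries of a genotype (n = 4) where they follow a ± sign.

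The 6 transporters covered a wide range of mRNA levels. Per kb of exonic sequence, which allows genes of different length to be compared, Slc17a7 was the most abundant in WT with 11972 ± 1942 normalized counts per kb (SD, n = 4). Slc17a7 encodes the transporter of photoreceptor and bipolar cell terminals, by far the most numerous glutamatergic terminals of the retina. Slc1a2, which is known from cones and cone bipolar cells, followed with 1729 ± 93.7 per kb, and Slc1a7, known from the terminals of photoreceptors and rod bipolar cells, with 944 ± 64.5 per kb. Slc17a6, the transporter of retinal ganglion cells, had 472 ± 74.6 per kb, and the neuronal transporter Slc1a1 had 175 ± 8.80 per kb. Slc17a8, which in the retina marks a class of amacrine cells that release glutamate, was the lowest with 101 ± 15.1 per kb. The WT ranges of neighbours in this order did not overlap, and the order was the same in all 4 WT and all 4 quadruple KO libraries. The step from Slc1a1 down to Slc17a8 was the one that widened most, from a ratio of 1.74 in WT to 4.19 in the quadruple KO. The ratio of Slc17a6 to Slc1a1 instead was 2.7 in WT, against 1.86 in the quadruple KO.

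**Figure D1:**
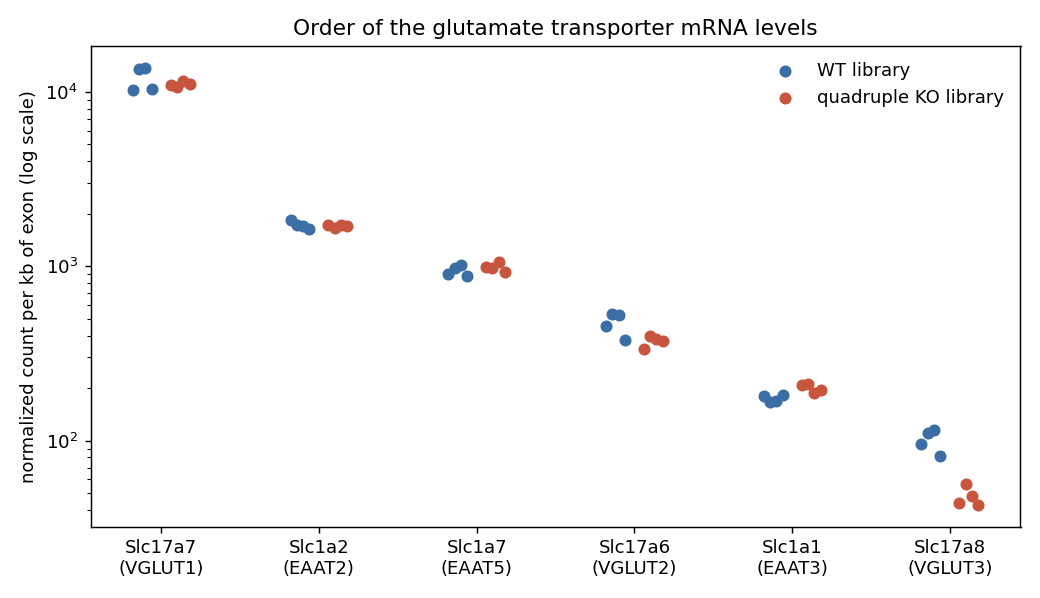
Normalized counts per kb of exonic sequence (log scale) of the 6 glutamate transporter mRNAs, with each point a library (blue, WT; red, quadruple KO). From Slc17a7 at 11972 per kb to Slc17a8 at 101 per kb in WT the ranges of neighbouring genes do not overlap.

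Among the vesicular transporters, Slc17a8 was lower in every quadruple KO library than in any WT library. The gene (ENSMUSG00000019935.17) lies on the minus strand of chromosome 10 (GRCm39, 89409882 to 89457326), its canonical transcript has 12 exons, and no other annotated gene overlaps it. It had 473, 545, 567 and 403 normalized counts in WT A to D, and 216, 277, 236 and 211 in KO A to D. The highest quadruple KO value, in KO B, thus stayed below the lowest WT value, in WT D. The means were 497 ± 74.5 and 235 ± 29.8, so that the quadruple KO had 47.3% of the WT level (log2 fold change -1.07, standard error 0.14). Against WT A and WT D alone it had 53.7% (log2 fold change -0.90). Fewer cells of a type and less RNA per cell cannot be told apart in RNA from whole retina.

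Slc17a6 also had a lower mean in the quadruple KO, but its genotypes overlapped. The gene (ENSMUSG00000030500.7; chromosome 7, 51271434 to 51320867, plus strand) had 2587, 3064, 3007 and 2147 normalized counts in WT A to D, and 1906, 2263, 2188 and 2134 in KO A to D. The value of WT D fell within the range of the quadruple KO, whereas WT B and WT C were the highest of the 8 libraries. With means of 2701 ± 426 and 2123 ± 154, the quadruple KO had 78.6% of the WT level, a difference that did not pass the test over all genes (log2 fold change -0.34, with a standard error of 0.12, adjusted p = 0.301 by limma; p = 0.0857 in an exact permutation test, two-sided). Against WT A and WT D alone the log2 fold change was -0.15 (adjusted p = 0.527 by limma).

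Slc17a7 differed less between genotypes than between libraries of the WT. The gene (ENSMUSG00000070570.6; chromosome 7, 44813305 to 44825644, plus strand) had 56493, 75101, 76259 and 57644 normalized counts in WT A to D, and 60634, 59223, 63725 and 61377 in KO A to D. The quadruple KO values all lay between those of WT A and WT D on the one side and those of WT B and WT C on the other. The means of 66374 ± 10766 and 61240 ± 1882 differed by less than the WT libraries did among themselves (log2 fold change -0.10, 95% confidence interval -0.36 to 0.15, adjusted p = 0.591 by limma; p = 0.429 in an exact permutation test, two-sided). The sign depended on the WT libraries, with a log2 fold change of 0.10 against WT A and WT D alone (adjusted p = 0.462 by limma).

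**Figure D2:**
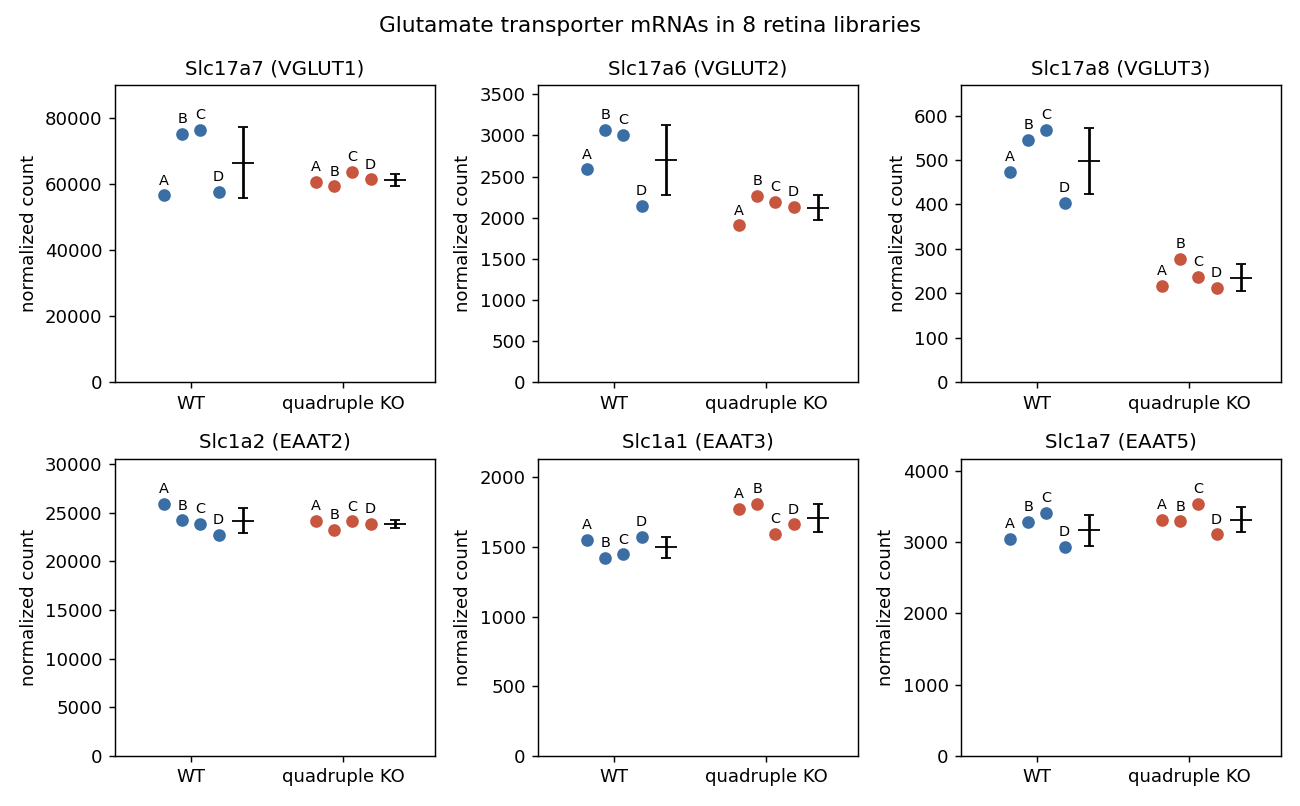
Normalized counts of the 6 transporter mRNAs by library (letters A to D; blue, WT; red, quadruple KO), with the mean and SD of each genotype in black and every axis starting at 0. The genotypes are fully separated for Slc17a8, where all quadruple KO values are at or under 277 and all WT values at or over 403, and by a small gap for Slc1a1.

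Set against each other within a library, the 3 vesicular transporters showed an altered proportion. The ratio of Slc17a6 to Slc17a8 normalized counts was 5.48, 5.62, 5.30 and 5.33 in WT A to D, so that WT B and WT C did not stand out in this ratio. It was 8.81, 8.17, 9.28 and 10.1 in KO A to D. On the scale of counts per kb, Slc17a8 made up 0.806% ± 0.061 of the 3 vesicular transporter mRNAs in WT and 0.417% ± 0.060 in the quadruple KO. Slc17a7 made up 95.4% ± 0.378 and 96.3% ± 0.299 of them. These ratios and shares include Slc17a8, the gene picked for its difference, and are given without a test.

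With all 8 libraries, the plasma-membrane transporters differed less between the genotypes than Slc17a8 and Slc17a6. Slc1a1 differed more than Slc17a7 (log2 fold changes 0.19 and -0.10). Slc1a1 (ENSMUSG00000024935.12; chromosome 19, 28812449 to 28891360, plus strand) had 1550, 1419, 1447 and 1571 normalized counts in WT A to D, and 1773, 1809, 1596 and 1662 in KO A to D. Every quadruple KO value lay above every WT value, with a gap between WT D and KO C that was smaller than the spread within either genotype. The means were 1497 ± 75.3 and 1710 ± 98.5, 114% of the WT level. This difference did not pass the test over all genes (log2 fold change 0.19, with a standard error of 0.07, adjusted p = 0.301 by limma), although the two-sided exact permutation test on the gene alone gave p = 0.0286, which is the lower limit of this test with 4 libraries per genotype. Spata6l, a gene on the opposite strand that overlaps Slc1a1, had 34.1 ± 17 and 21.1 ± 6.81 normalized counts, and whether strand was used in counting is not given in the sources used here. Against WT A and WT D alone the log2 fold change of Slc1a1 was 0.13 (adjusted p = 0.460 by limma).

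Slc1a2, the most abundant of the 3 plasma-membrane transporters per kb, was the member with the smallest difference. The gene (ENSMUSG00000005089.16; chromosome 2, 102488574 to 102621129, plus strand) had 25916, 24226, 23870 and 22750 normalized counts in WT A to D, and 24195, 23213, 24116 and 23859 in KO A to D. All quadruple KO values lay inside the WT range. The quadruple KO had 98.6% of the WT level (24190 ± 1311 and 23846 ± 446), and the 95% confidence interval of the log2 fold change ran from -0.16 to 0.12 (adjusted p = 0.871 by limma; p = 0.686 in an exact permutation test, two-sided). Against WT A and WT D alone the log2 fold change was -0.03 (adjusted p = 0.882 by limma).

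Slc1a7 also overlapped between genotypes. This gene (ENSMUSG00000008932.11; chromosome 4, 107825529 to 107870729, plus strand) encodes a transporter with a large chloride conductance, through which photoreceptor and rod bipolar terminals damp their own release. It had 3047, 3290, 3412 and 2940 normalized counts in WT A to D, and 3322, 3295, 3540 and 3112 in KO A to D. Only KO C exceeded the highest WT value. The means were 3172 ± 217 and 3317 ± 176, 105% of the WT level (log2 fold change 0.07, 95% confidence interval -0.10 to 0.23, adjusted p = 0.60 by limma; p = 0.343 in an exact permutation test, two-sided). Without WT B and WT C the log2 fold change was 0.15 (adjusted p = 0.38 by limma), and with 1 library left out it ranged from 0.030 without WT D to 0.10 without WT C.

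Over all genes tested, 77 of 17636 (0.437%) were called at a limma adjusted p under 0.05, and 0 of the 5 transporters other than Slc17a8 were among them. At an unadjusted p under 0.05 there were 2 of the 5, Slc17a6 and Slc1a1, where 16.6% of all genes were. Of the 5 genes 1, Slc1a1, had genotypes that did not overlap, as did 9.74% of all genes. The median log2 fold change over all genes tested was -0.00018, near 0 as the scaling of normalized counts sets it, so a shift common to all genes cannot be seen in these values.

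Much of the spread of the vesicular transporters in WT lay between library pairs. The mean of WT B and WT C exceeded that of WT A and WT D by 0.41 on the log2 scale for Slc17a7, by 0.36 for Slc17a6 and by 0.34 for Slc17a8. For Slc1a7 this difference was 0.16, for Slc1a2 -0.02 and for Slc1a1 -0.12. In 4 of the 6 genes, the 3 vesicular transporters and Slc1a7, both WT B and WT C lay above both WT A and WT D. The coefficient of variation over the WT libraries was 16.2% for Slc17a7, 15.8% for Slc17a6 and 15.0% for Slc17a8, and in the quadruple KO it was 3.07%, 7.25% and 12.7%. For the plasma-membrane transporters it ranged in WT from 5.03% for Slc1a1 to 6.83% for Slc1a7. Slc17a8 was chosen by its difference between the genotypes. Its lowest WT value was in WT D, outside the pair of WT B and WT C, and lay above all 4 quadruple KO values.

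**Figure D3:**
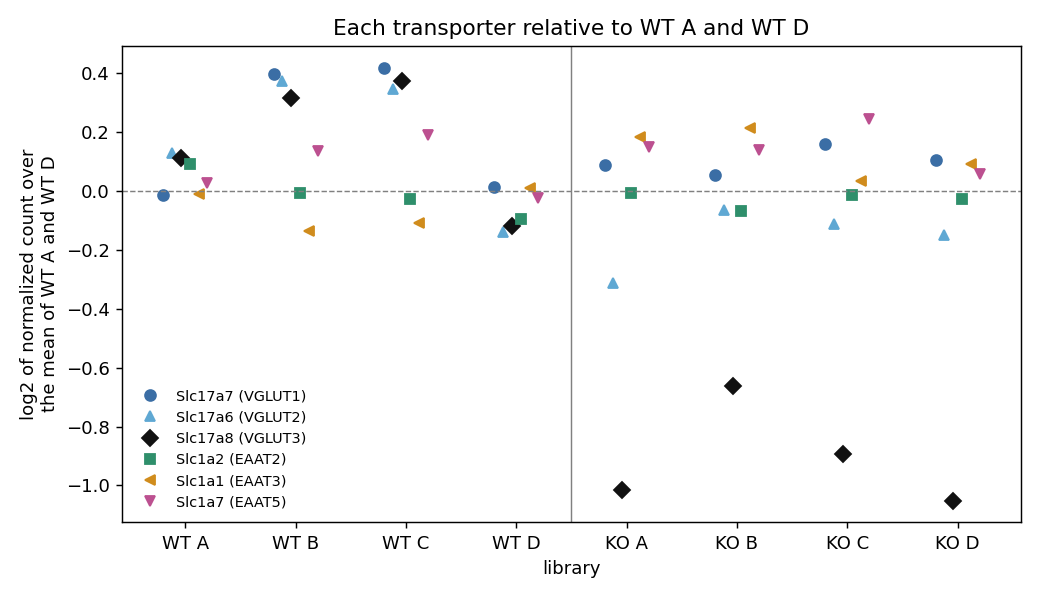
Log2 of each library's normalized count over the mean of WT A and WT D, for the 6 transporters (symbols) in the 8 libraries (x axis). WT B and WT C lie above 0 for the 3 vesicular transporters, and Slc17a8 is the only one of the 6 that lies below -0.5 in all 4 quadruple KO libraries.

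The cell classes that the transporters are known from were followed through marker lists. For the amacrine cells, from which Slc17a8 is known, 0 of 8 markers were called by limma and 2 were higher at an unadjusted p under 0.05. Over all genes these shares were 0.437% and 16.6%, in either direction. The summed level of the list was 34044 to 38376 normalized counts in WT, against 35117 to 36680 in the quadruple KO. The list covers amacrine cells at large and not the class that Slc17a8 marks, so a change in that class was not tested. The glutamate decarboxylase gene Gad1 was the only one of the 8 with a lower mean in the quadruple KO (log2 fold change -0.42, adjusted p = 0.312 by limma), and the median of the list was 0.21. Gad1 had 9049, 16050, 14384 and 7888 normalized counts in WT A to D, and without WT B and WT C its log2 fold change was 0.00283 and the median of the list 0.02. Unlike Slc17a8, 7 of the 8 markers were lower in WT B and WT C than in WT A and WT D.

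For retinal ganglion cells, from which Slc17a6 is known, 0 of 10 markers were called by limma, 5 were lower and 0 higher at an unadjusted p under 0.05, and the median log2 fold change was -0.19. In 4 of them, Rbpms, Rbpms2, Nefl and Sncg, the genotypes did not overlap and the quadruple KO was below WT. Over all genes, 0.437% were called, 16.6% were at an unadjusted p under 0.05 and 9.74% did not overlap, in either direction. Of the 10 markers, the RNA-binding protein gene Rbpms2 had the lowest log2 fold change (-0.53, adjusted p = 0.253 by limma). It had 662 ± 44.2 normalized counts in WT compared with 461 ± 75.6 in the quadruple KO. The transcription factor gene Pou4f1 had a log2 fold change of 0.29, with the opposite sign (adjusted p = 0.419 by limma). The summed level of the 10 markers was 29911 to 33633 in WT, against 24781 to 29485 in the quadruple KO. Without WT B and WT C, all 10 log2 fold changes were below 0, with a median of -0.21 and again 0 calls by limma. At an unadjusted p under 0.05, 5 were lower and 0 higher. Over all genes 99 were called in this setting, and the share at such a p was not counted. The sign of Pou4f1 turned (-0.11), and Rbpms2 was at -0.52 (adjusted p = 0.226 by limma). The part of these markers in the value of Slc17a6 was not tested.

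Photoreceptors and bipolar cells, from which Slc17a7, Slc1a2 and Slc1a7 are known, had no called marker either. At an unadjusted p under 0.05, 2 rod, 0 cone, 2 rod bipolar and 1 cone bipolar markers were higher, and 0 were lower. For the rod markers Sag and Nr2e3 and the cone bipolar marker Grik1, every quadruple KO value lay above every WT value. Over all genes, 16.6% were at such a p and 9.74% did not overlap, in either direction. The medians of the log2 fold changes were 0.21 over 5 rod markers, -0.01 over 6 cone markers, 0.14 over 5 rod bipolar markers and -0.13 over 5 cone bipolar markers. The summed rod markers ranged from 539806 to 641161 normalized counts in WT and from 668901 to 714011 in the quadruple KO. With WT B and WT C left out the medians were 0.16, 0.013, 0.032 and 0.096, in the same order. At an unadjusted p under 0.05, 3 rod and 1 cone bipolar markers were then higher, and 0 were lower. Over all 15 marker lists, 0 of 76 genes tested were called by limma, where 0.437% of all genes were. At an unadjusted p under 0.05, 6 were lower and 11 higher, and the median log2 fold change was 0.014. With WT B and WT C left out these numbers were 0 called, 5 lower, 6 higher and a median of 0.026. In that setting 99 genes were called over all genes, and the share at an unadjusted p under 0.05 was not counted.

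Of the relatives of the 6 genes, 4 SLC1 and 3 SLC17 genes were tested and 0 were called, where 0.437% of all genes were. Of the other SLC1 genes, the glial glutamate transporter gene Slc1a3 (EAAT1), the main route of glutamate uptake into Mueller glia, had 7156, 5673, 5128 and 7101 normalized counts in WT A to D and 7147, 7053, 7003 and 6702 in KO A to D. The low values of Slc1a3 were those of WT B and WT C, and the other 6 libraries lay close together (log2 fold change 0.17, with a standard error of 0.11, adjusted p = 0.382 by limma). Slc1a6 (EAAT4) had 126 ± 18.5 and 139 ± 16.0 (log2 fold change 0.14, adjusted p = 0.566 by limma). The amino acid exchangers Slc1a4 and Slc1a5 had log2 fold changes of -0.06 and 0.13. Of the other SLC17 genes, 3 of 6 were analysed here, with log2 fold changes from -0.36 for Slc17a1 to 0.33 for Slc17a2. Without WT B and WT C, the log2 fold changes turned to -0.03 for Slc1a3 and -0.013 for Slc1a6. They were -0.16 for Slc1a4, 0.25 for Slc1a5, -0.11 for Slc17a1 and 0.15 for Slc17a2. In that setting 0 of the tested relatives were called, and 99 genes were over all genes.

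The transporters that fill vesicles with other transmitters or belong to vesicles were tested alike. Slc32a1, which loads GABA and glycine, had 3120 ± 225 normalized counts in WT compared with 3374 ± 140 in the quadruple KO (log2 fold change 0.11, adjusted p = 0.372 by limma). Slc18a3, which loads acetylcholine in starburst amacrine cells, had 240 ± 47.9 and 302 ± 14.9 (log2 fold change 0.35, adjusted p = 0.301 by limma). The vesicle glycoprotein gene Sv2c had the lowest value of the list, with 1690, 3342, 2991 and 1410 normalized counts in WT A to D and 1399 to 1579 in the quadruple KO (log2 fold change -0.56, adjusted p = 0.302 by limma). Its higher WT mean came from WT B and WT C, without which its log2 fold change was -0.04. The same values were 0.13 for Slc18a3 and 0.030 for Slc32a1.

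Genes that make glutamate or return it to neurons as glutamine included the relatives with the largest differences. Gls2, whose enzyme turns glutamine into glutamate, had 390, 575, 735 and 373 normalized counts in WT A to D, and 205, 271, 242 and 264 in KO A to D. The genotypes did not overlap, and the quadruple KO had a log2 fold change of -1.03 (standard error 0.21), which did not pass the test over all genes (adjusted p = 0.153 by limma). The highest values were those of WT B and WT C, without which the log2 fold change was -0.64 (standard error 0.12, adjusted p = 0.0672 by limma). Glul, the glutamine synthetase of Mueller glia, had a log2 fold change of -0.36 (adjusted p = 0.301 by limma), and of -0.07 without WT B and WT C.

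The highest log2 fold change of the lists was that of Slc7a11, the cystine/glutamate exchanger gene, with 212, 59.4, 42.0 and 92.9 normalized counts in WT A to D and 118 to 166 in KO A to D (log2 fold change 0.76, adjusted p = 0.333 by limma). Got2, the mitochondrial aspartate aminotransferase gene, had 6186, 3846, 4395 and 6278 in WT A to D and 6304 to 7106 in the quadruple KO, so that the genotypes were just apart and WT B and WT C were the lowest libraries (log2 fold change 0.40, adjusted p = 0.301 by limma). The glutamine carrier genes Slc38a1 and Slc38a3 had log2 fold changes of 0.23 and 0.16 (adjusted p = 0.301 by limma for each). Without WT B and WT C, whose values of Slc7a11 were the lowest of the 8, the log2 fold changes were 0.019 for Slc7a11, 0.10 for Got2, 0.079 for Slc38a1 and 0.11 for Slc38a3.

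The proton pump that drives vesicular loading, with a chloride carrier of vesicles and endosomes, was represented by 17 genes. Of these 0 were called by limma, and 1 was lower and 0 higher at an unadjusted p under 0.05. Over all genes, 0.437% were called and 16.6% were at such a p. The median log2 fold change of the 17 genes was -0.05, from -0.48 for Atp6v0a1 to 0.28 for Atp6ap1. Both extremes rested on WT B and WT C, without which they were -0.05 for Atp6v0a1 and 0.024 for Atp6ap1, and all 17 values lay between -0.09 and 0.066. Over all 5 lists of related genes, 0 of 43 tested genes were called by limma, and the median log2 fold change was 0.018. At an unadjusted p under 0.05, 3 were lower and 4 higher. Beside the shares of 0.437% and 16.6% over all genes, these counts do not set the 43 genes apart. Without WT B and WT C, 0 were called by limma, 1 was lower and 3 were higher at an unadjusted p under 0.05, and the median was -0.0001. Over all genes 99 were called in that setting, and the share at such a p was not counted.

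**Figure D4:**
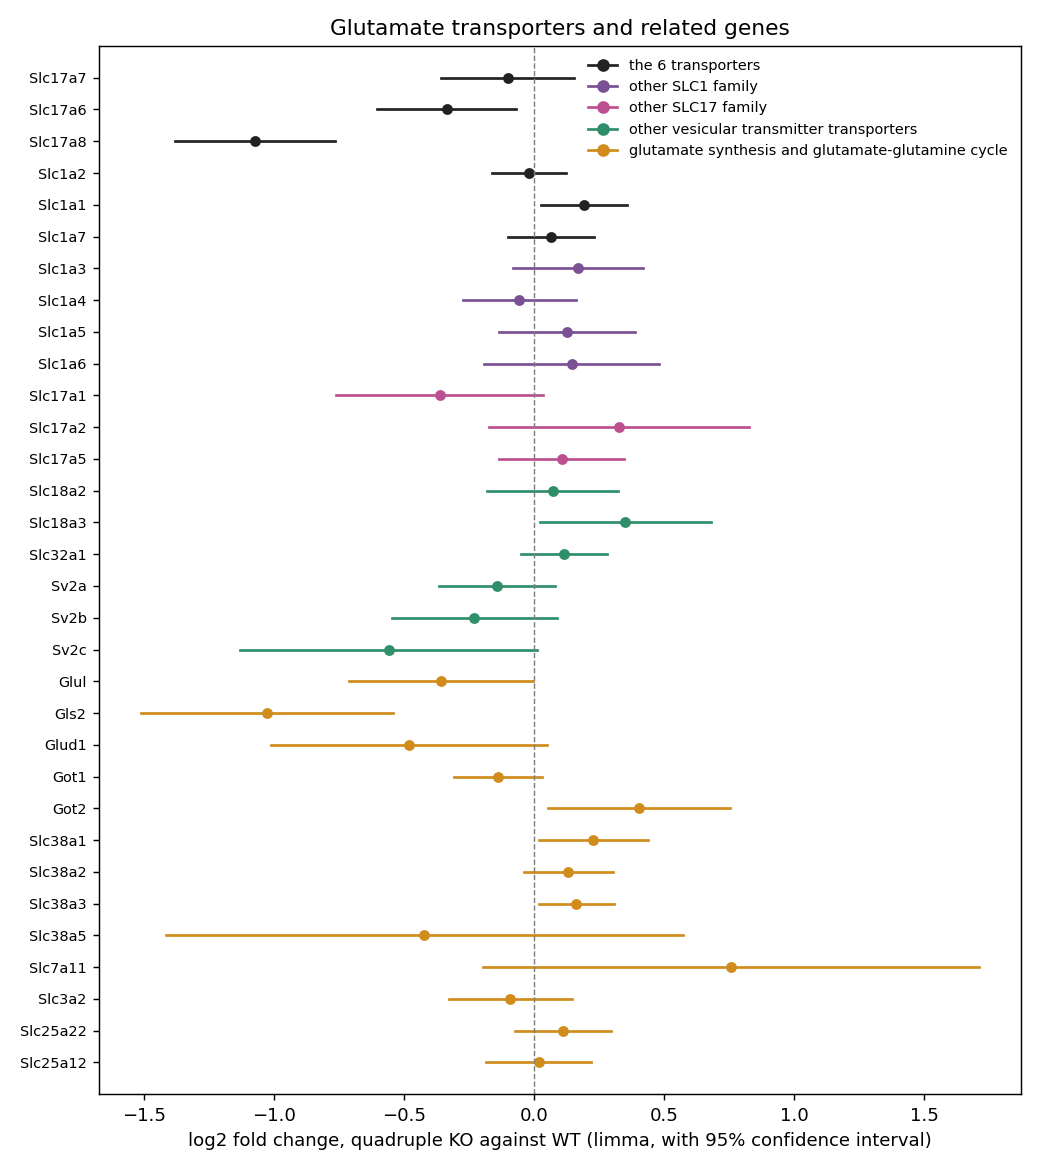
Log2 fold changes, quadruple KO over WT (points), with 95% confidence intervals (lines) for the 6 transporters and for related genes, coloured by list. Slc17a8 was chosen by this contrast, so its interval is not a test. Slc17a8 at -1.07 and Gls2 at -1.03 have the lowest values with all 8 libraries (-0.90 and -0.64 without WT B and WT C), and the interval of Slc1a2 is narrow around 0.

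The chromosomal surroundings of each transporter were compared next. None of the 4 targeted genes lies on the chromosome of Slc17a7, Slc17a6, Slc17a8, Slc1a2 or Slc1a1, and Slc1a7 shares chromosome 4 with Tnc at a distance of 43.9 Mb. Within 1 Mb of Slc17a8, 12 other genes were tested and 1 was called, where 0.437% of all genes were. It was Slc5a8 (ENSMUSG00000020062.8; chromosome 10, 88721766 to 88765377), which encodes a sodium-coupled monocarboxylate transporter. Slc5a8 lay 645 kb away and had 120, 70.0, 84.4 and 119 normalized counts in WT A to D. It was listed at 0.854 in KO A and at 0 in KO B, KO C and KO D (adjusted p = 1.5e-05 by limma), and the adjusted p stayed between 4.8e-05 and 0.00018 when any library was left out.

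The genes directly beside Slc17a8 had overlapping or higher values in the quadruple KO and were not called. Nr1h4, a bile acid receptor gene 40.4 kb away, had 33.7 to 59.9 normalized counts in WT, against 39.7 to 61.0 in the quadruple KO (log2 fold change 0.10, adjusted p = 0.806 by limma). Scyl2, a gene of clathrin-coated vesicle traffic 12.3 kb away on the other side, had 1102, 964, 783 and 1201 in WT A to D and 1215 to 1325 in the quadruple KO (log2 fold change 0.33, adjusted p = 0.301 by limma). Lower means without a call were found for Gas2l3 (log2 fold change -1.10, standard error 0.49), 1500026H17Rik (-0.56, standard error 0.17), Anks1b (-0.38, standard error 0.14) and Ano4 (-0.29, standard error 0.10). Uhrf1bp1l (-0.20), Gm4925 (-0.19) and Arl1 (-0.18) also had lower means. These genes were named after their values were seen. Of the 12 genes, Slc5a8, 1500026H17Rik and Anks1b lay fully below WT in the quadruple KO, and Scyl2 fully above. Over all genes, 9.74% did not overlap, in either direction. The median log2 fold change of the 12 genes was -0.20. Slc5a8 was also called without WT B and WT C (adjusted p = 4.3e-05 by limma). The log2 fold changes were then -0.11 for Nr1h4, 0.13 for Scyl2, -0.41 for Gas2l3, -0.39 for 1500026H17Rik, -0.22 for Anks1b and -0.40 for Ano4. They were -0.12 for Uhrf1bp1l, -0.11 for Gm4925 and 0.11 for Arl1, and the median of the 12 genes was -0.12.

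**Figure D5:**
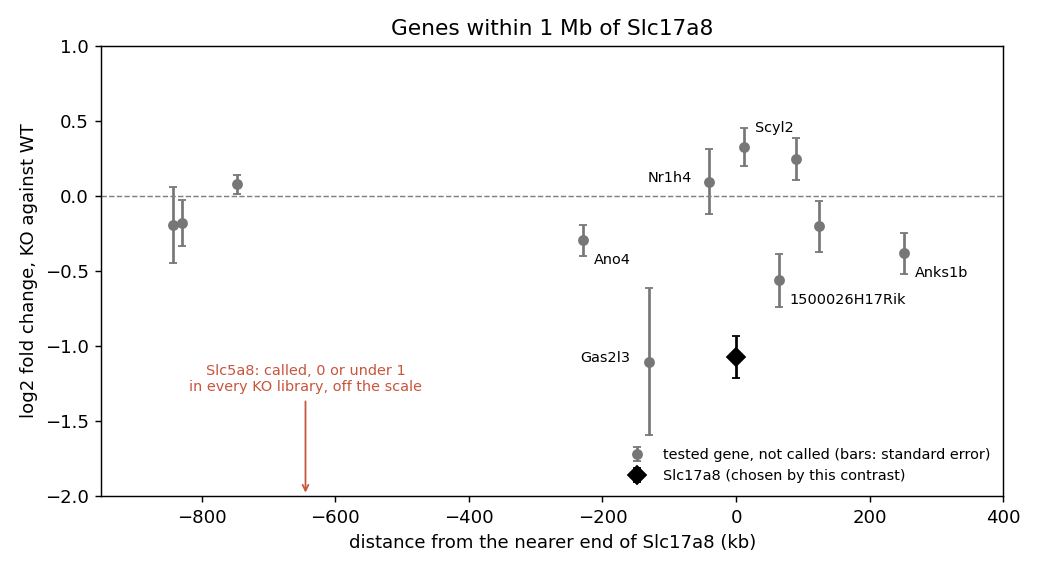
Log2 fold change, quadruple KO over WT, for genes tested within 1 Mb of Slc17a8, by distance from its nearer end in kb, with standard errors as bars. Slc5a8 is drawn as an arrow because it is at 0 or under 1 normalized count in each quadruple KO library, and the genes on either side of Slc17a8, Nr1h4 and Scyl2, lie above 0 with all 8 libraries (-0.11 and 0.13 without WT B and WT C).

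Around the other transporters 1 further gene was called. It was Glis1 (ENSMUSG00000034762.10), a zinc finger transcription factor gene 333 kb from Slc1a7, with 54.7, 83.1, 74.4 and 69.6 normalized counts in WT A to D and 22.1 to 32.4 in the quadruple KO (log2 fold change -1.32, with a standard error of 0.19, adjusted p = 0.0194 by limma). Leaving out WT B, WT C, KO B, KO C or KO D ended this call, with adjusted p-values from 0.0192 to 0.0871 over the 8 libraries left out, as did leaving out WT B and WT C together (log2 fold change -1.15, adjusted p = 0.0793 by limma). The numbers of genes tested within 1 Mb were 86 for Slc17a7, 6 for Slc17a6, 16 for Slc1a2, 17 for Slc1a1 and 35 for Slc1a7. Apart from Glis1 0 of these neighbours were called by limma, where 0.437% of all genes were. The median log2 fold changes of these neighbours lay between -0.14 around Slc17a7 and 0.17 around Slc1a1.

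Finally, the variation of each transporter among libraries of the same genotype was compared with that of the 12629 other genes with a mean of at least 100, as Pearson's r over the 8 libraries after the genotype means were subtracted. All genes share these libraries, of which WT B and WT C differ from the rest, so r is a description. Slc17a7 was above 0.9 with 2189 genes, most closely with Clba1 (0.996), Exog (0.995) and Ptma (0.995). Slc17a6 was above 0.9 with 195 genes, led by Gpatch3 (0.982), Ttll7 (0.981) and Kcnk12 (0.977). Slc17a8 was above 0.9 with 65 genes, led by Lig1 (0.993), Aifm3 (0.989) and Adgrb2 (0.982).

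Fewer genes resembled the plasma-membrane transporters Slc1a2 and Slc1a1, with 13 and 21 genes above 0.9, and 125 did so for Slc1a7. The leading genes were Rnaseh2b (0.989), Gulo (0.986) and Rdx (0.971) for Slc1a2, Atxn3 (0.986), Prkab1 (0.965) and Lias (0.960) for Slc1a1, and Sdf2l1 (0.965), Manbal (0.962) and Rax (0.956) for Slc1a7. Among the transporters themselves, r was highest between Slc17a6 and Slc17a8 (0.883), followed by Slc17a7 and Slc1a7 (0.799) and Slc17a7 and Slc17a6 (0.771). It was lowest between Slc17a7 and Slc1a1 (-0.757), with WT B and WT C the highest libraries for Slc17a7 and the lowest for Slc1a1.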

How the data were processed

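Total RNA of adult retinae was prepared with a directional total RNA kit from 450 ng. Per the labels and the methods, the authors trimmed reads with Trim Galore 0.6.7, aligned them with STAR 2.7.9a to GRCm39, and quantified genes with Salmon 1.5.2. The authors deposited normalized counts from DESeq2 1.32.0, which are the values used here. Their columns of fold changes and p-values were not used. Depth in reads is unknown, because only 41.8% to 77.9% of low values lay within 10% of whole steps.

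Genes whose mean was 10 or more were compared on log2(normalized count + 1) with limma 3.58.1 in R 4.3.3 (eBayes with trend), without covariates, and adjusted p-values are Benjamini-Hochberg values over the 17636 genes. Fold changes on this scale understate changes of low genes. Exact permutation tests and summaries used Python 3.11.15 with scipy 1.17.1. Levels per kb used the union of exons in a GENCODE annotation of GRCm39. The letters A to D were not taken as pairs. Steps were tested on simulated data. For limma these data took their spread from the quadruple KO libraries only. They do not cover the wider spread in WT or the difference of WT B and WT C from the rest.

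The members, gene lists and tests were chosen with earlier results of these data known. Named were the 6 transporters, genes called or with the 2 lowest and 2 highest fold changes over the related lists together, called genes within 1 Mb, genes beside Slc17a8, defining markers, and for each transporter the 3 genes of highest r. Other list genes were named after their values were seen. Alternatives were other scalings, filters, pseudocounts (10 and 0.1), priors, array weights, a replicate block, leaving out WT B and WT C together, and each library left out. Some list genes are not reported here and were left out of the counts.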

Additional observations from a re-analysis of the deposited data

Results flagged for a closer look

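Slc5a8, the called neighbour of Slc17a8, was listed at 0.854 normalized counts in KO A and at 0 in the other 3 quadruple KO libraries. The value of KO A is close to what 1 read is worth there (an estimated 0.861), and with 3 libraries at 0 any value above 0 would be set apart in this way. Over 28 groups of 4 libraries from 14 named genes, this was the only such case, and chance alone gives about 5% of groups.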

How the results depend on the processing

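Slc17a8 was chosen by this contrast in these same libraries, so its values over the settings are a description. Its log2 fold change stayed between -1.17 and -0.90 over 19 alternatives. It was -1.02 without WT B, -1.0 without WT C and -0.90 without both. None of the 5 other transporters was called under any of the 19, with the lowest adjusted p at 0.0767 for Slc17a6, without WT D. The sign turned for Slc17a7 with array weights (0.075) and without WT B and WT C (0.10), and for Slc1a2 without WT A (0.014), against -0.048 without WT D. With array weights, 143 genes were called over all genes, in place of 77, and 1 gene of the related lists, Gls2 (adjusted p = 0.0305). With the letter as a replicate block 51 genes were called, and without WT B and WT C 99. WT and KO libraries of the same letter had correlations of their deviations from the genotype means from -0.11 to 0.10. In WT these deviations include the difference of WT B and WT C, so they do not settle what the letters mark. The replicate block changed no call of a transporter, of a neighbour of Slc17a8 or of a related gene. It ended the call of Glis1 (adjusted p = 0.241 by limma). A minimum mean of 100 removed Slc5a8 from the test and left 0 called neighbours of Slc17a8. Without 1 library, 54 to 89 genes were called. All 5 steps in the order of levels held in every WT library per kb of exon, without division by length, and, as an alternative chosen after seeing the data, per kb of the canonical transcript. With 4 libraries per genotype, permutation p-values cannot fall below 0.0286. The p-values measure the spread between libraries, which may in part be technical, and in WT it includes the difference of WT B and WT C from the rest.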
